A study of Mus musculus with 3 samples.

Results

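The genes described here are 9 transcription factors of the macrophage lineage, *Spi1*, *Cebpa*, *Cebpb*, *Cebpd*, *Maf*, *Runx1*, *Myc*, *Bhlhe40* and *Mitf*. They were chosen by name, as the gene probes whose gene symbol on the array was 1 of these 9, which gave 17 of the 56605 gene probes and 9 of the 26840 genes with a symbol. All 9 genes were well above background on all 3 arrays by the probe used to represent them, so none was lost to a filter on dim probes.

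The study asked how 2 immunomodulatory lactobacilli alter the response of macrophages to LPS, the lipopolysaccharide of Gram-negative bacteria that is sensed by Toll-like receptor 4. RAW 264.7 cells, a mouse macrophage line, received medium alone, *Lacticaseibacillus rhamnosus* CRL1505 or *Lactiplantibacillus plantarum* CRL1506 at 50000000 bacteria per mL for 24 h. The bacteria were then washed off and all cells were given LPS at 50 ng/mL, for 12 h according to the design text and for 3 h according to the description of each sample. RNA was measured with 1 one-color array for each of the 3 conditions (LPS, CRL1505 + LPS and CRL1506 + LPS), and cells without LPS were not analysed here. LPS was therefore present in all conditions, and every ratio below compares cells that received LPS.

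Macrophages arise from progenitors under the control of PU.1, the product of *Spi1*, which opens enhancers together with the C/EBP proteins and RUNX1. C/EBPα drives myeloid differentiation and slows cell division, while C/EBPβ and C/EBPδ are inflammatory relatives that bind the same DNA element and act on cytokine and acute-phase genes. c-MAF is best known in macrophages for driving *Il10* and for restraining self-renewal, MYC drives growth and division, BHLHE40 is a repressor that restrains *Il10*, and MITF governs pigment cells, mast cells and osteoclasts.

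Each condition had 1 array, so no difference between conditions has a replicate check and no p-value is given. The arrays of LPS and CRL1506 + LPS shared a slide and a scan run, whereas the array of CRL1505 + LPS came from another slide, so strain CRL1505 and slide cannot be told apart. The share of gene spots well above background was 54.5% on the array of LPS alone, 48.5% with CRL1505 and 55.3% with CRL1506, and the 75th percentile of the signal was 743.1, 517.0 and 697.9, respectively. For probes spotted 10 times, the log2 ratio between arrays was taken spot by spot. The median SD of this ratio over the spots of a probe was 0.0475, 0.0434 and 0.0466 in the 3 comparisons, a measure of spot error alone. A wider yardstick is the SD between different probes of a gene, whose median was 0.23 for CRL1505 + LPS against LPS, 0.22 for CRL1506 + LPS against LPS and 0.32 between the strains. All 10 macrophage markers on the array were well above background in all conditions. Markers of other cell types were not all near background. In the order LPS alone, CRL1505 and CRL1506, the number well above background was 4, 4 and 4 of 6 T cell markers, 3, 2 and 3 of 5 B cell markers and 5, 5 and 4 of 6 neutrophil markers. It was 0, 1 and 3 of 5 fibroblast markers, 1, 0 and 1 of 5 epithelial markers and 1, 3 and 3 of 4 endothelial markers. The T cell markers *Cd3e*, *Cd4* and *Lck* were among those above background and *Cd3g* and *Cd8a* were not. The neutrophil gene *S100a8* read 1319, 370.1 and 1536, and *S100a9* was well above background with CRL1505 only, at 209.6. The cultures held a macrophage line only, so these markers do not count cells of other types. Whether their signals reflect expression by the line or signal of the probes was not tested.

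The probes of the genes with the widest changes are shown by their first 30 of 60 bases, because *Cebpa* rests on 1 probe and because the probes of *Maf* and of *Mitf* did not give 1 answer. Positions are those in the array files (mm9), and probes are numbered by their brightness.
Cebpa probe 1, chr7:35906517-35906576: ttttgttttggttttgctctgattcttgcc
Maf probe 1, chr8:118227736-118227795: tgggtatgtgtagttcttgctataccatgg
Maf probe 2, chr8:118206902-118206961: catggaccctgcttgtttctaaacaccggt
Maf probe 3, chr8:118207273-118207332: gaacaagccttggtttacattagaataacg
Mitf probe 1, chr6:97971229-97971288: cagcaatactttctgtatggtccgcagcac
Mitf probe 4, chr6:97892054-97892113: ttacgttttacccattcacctaattgatcc
*Maf* probes 2 and 3 lie 20.8 and 20.4 kb from probe 1, and *Mitf* probe 4 lies 79.1 kb from probe 1. No gene annotation of this build was used, so exons and untranslated regions are not assigned to these positions.

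The promoters of *Cebpa* and *Cebpb* are shown because these close relatives differed after CRL1505. *Cebpa* was lower than with LPS alone, and *Cebpb* was near or above its level there, depending on the scaling. Each line gives the 250 bases before the transcription start (RefSeq, GRCm38.p6, plus strand). The capitals mark matches on either strand to the 3 motifs that were found among those searched. The TATA box was searched as TATAAA. The GC box was searched as GGGCGG. The core of the cyclic AMP response element was searched as TGACG. The positions are in another build than those of the probes and were not converted.
Cebpa, chr7:35119043-35119292: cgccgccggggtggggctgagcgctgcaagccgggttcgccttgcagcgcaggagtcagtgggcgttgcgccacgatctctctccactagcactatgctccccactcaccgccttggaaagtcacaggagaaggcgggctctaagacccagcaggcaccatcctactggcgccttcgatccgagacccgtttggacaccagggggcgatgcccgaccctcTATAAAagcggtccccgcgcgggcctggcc
Cebpb, chr2:167688665-167688914: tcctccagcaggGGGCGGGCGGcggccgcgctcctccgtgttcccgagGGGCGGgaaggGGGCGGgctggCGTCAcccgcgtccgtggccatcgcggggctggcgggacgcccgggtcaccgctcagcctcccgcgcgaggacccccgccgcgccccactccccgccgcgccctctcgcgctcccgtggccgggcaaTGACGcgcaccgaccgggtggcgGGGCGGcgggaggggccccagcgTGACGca
The *Cebpa* window held 1 TATA box, 30 bases before the start, and no GC box or TGACG. The *Cebpb* window held 5 GC boxes, of which the first 2 overlap, 3 matches to TGACG and no TATA box. The CCAAT box (CCAAT), the E-box (CACGTG) and the PU.1 core (GAGGAAGT) were also searched. So were the C/EBP palindrome (TTGCGCAA) and the RUNX core (TGTGGT), and neither window held any of these. Their G and C content was 66.4% and 81.6%, against a median of 52.4% over 32817 promoter windows of the same length. Of those windows 12.4% held a TATA box, 32.7% a GC box and 17.7% the letters TGACG. RefSeq windows were matched for 4 of the 9 genes (*Cebpa*, *Cebpb*, *Mitf* and *Runx1*), and these matches describe the letters of the windows only.

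Compared to LPS alone, pretreatment with CRL1505 gave lower *Cebpa* and higher *Maf*, by 4.97-fold and 3.81-fold, and pretreatment with CRL1506 gave lower *Cebpa*, by 2.16-fold. After CRL1505, 1 of 9 was at least 2-fold higher (*Maf*), where 9.93% of 15603 genes were, and 1 of 9 was at least 2-fold lower (*Cebpa*), where 8.41% were. After CRL1506, none was 2-fold higher, where 5.67% of 16279 genes were, and 1 was 2-fold lower (*Cebpa*), where 3.53% were. Between the strains, 2 of 9 were 2-fold higher with CRL1505 (*Cebpd* and *Maf*), where 9.02% of 15780 genes were, and 1 was 2-fold lower (*Cebpa*), where 7.47% were. Signals below are the processed intensities before scaling, and ratios are log2 ratios after each array was shifted to its own 75th percentile, so a ratio of 1 is 2-fold. Because 1 probe cannot be set against another in brightness, levels are compared only between arrays. In RNA from a whole culture, fewer cells that express a gene and less of its RNA per cell cannot be told apart.

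**Figure D1:**
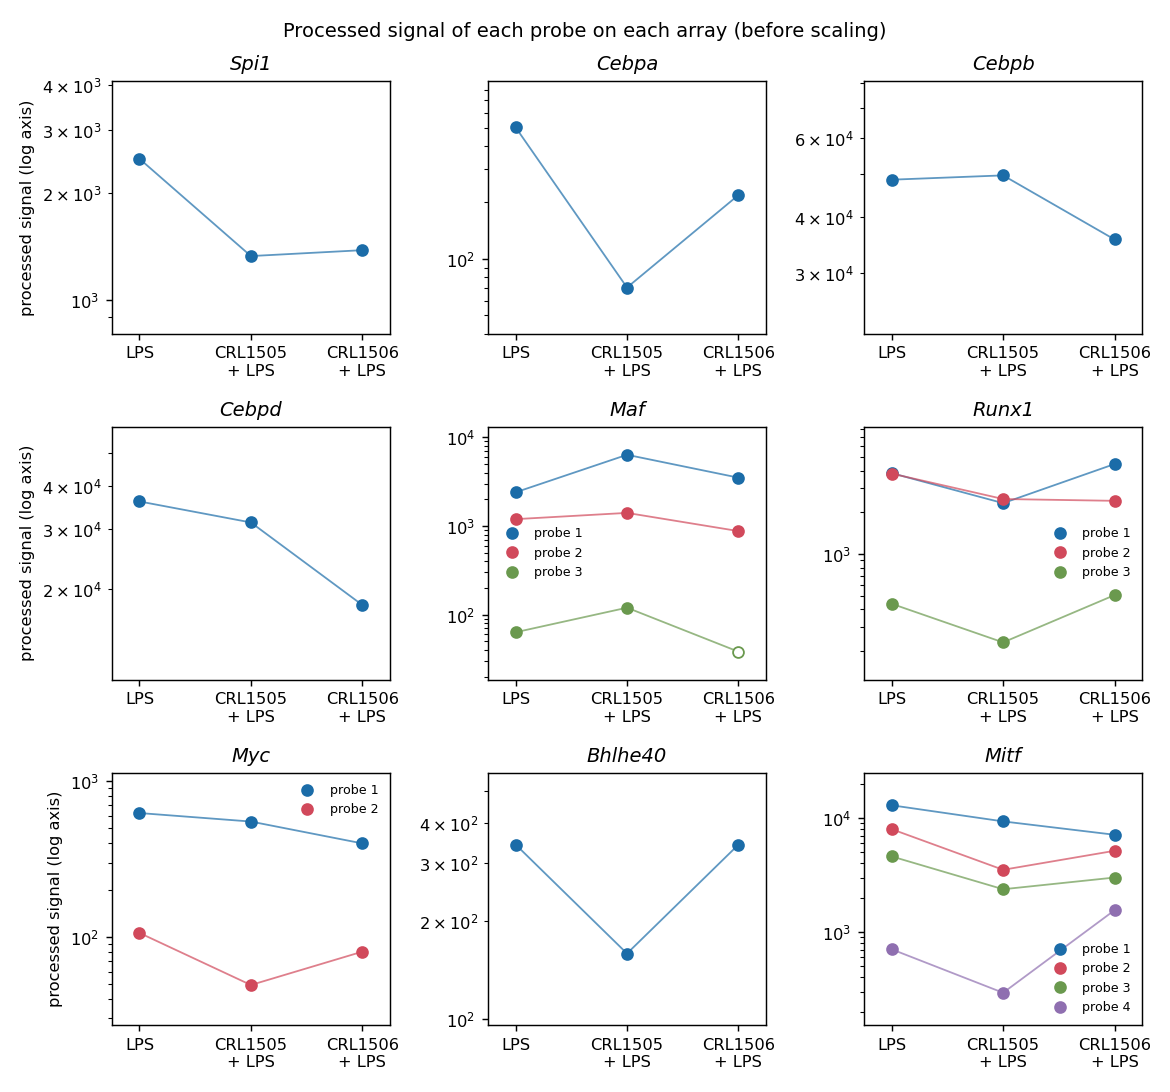
Processed signal (log axis, arbitrary units, before scaling) of every probe of the 9 genes on the 3 arrays, with 1 point per array and a line joining the points of 1 probe; the open point is not well above background. *Cebpa* is low and *Maf* probe 1 high with CRL1505 + LPS, and *Mitf* probe 4 stands apart from the other 3 *Mitf* probes with CRL1506 + LPS.

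*Spi1* encodes PU.1, the ETS factor that macrophages cannot develop without. Its signal was 2491 with LPS alone, 1330 with CRL1505 and 1382 with CRL1506. The scaled log2 ratio to LPS was -0.38 after CRL1505 and -0.76 after CRL1506, neither reaching 2-fold. Both ratios stayed below 0 under all 7 other normalizations (-0.89 to -0.09 and -0.96 to -0.66). For CRL1505, 25.3% of all genes compared had a ratio as far or farther below 0, and for CRL1506 5.90% did. Between the strains the log2 ratio of *Spi1* was 0.38, and its sign turned in 1 of the 7 normalizations. The 60 bases of the *Spi1* probe span an exon junction, since its ends lie 13788 bases apart on chromosome 2.

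*Cebpa* encodes C/EBPα, the C/EBP factor of myeloid differentiation. Its signal was 503.3 with LPS alone, 70.4 with CRL1505 and 219.1 with CRL1506, so the order was LPS, then CRL1506, then CRL1505. The log2 ratio to LPS was -2.31 after CRL1505 and -1.11 after CRL1506. The first was past 2-fold under all 7 other normalizations (-2.82 to -1.47) and the second under 6 of them (-1.31 to -0.89). Of all genes compared, 0.949% fell as far as *Cebpa* or farther after CRL1505 (148 of 15603) and 2.91% after CRL1506 (473 of 16279). Between the strains *Cebpa* was 2.31-fold lower with CRL1505 (log2 ratio -1.20), which stayed past 2-fold in 2 of the 7 normalizations and below 0 in all of them (-1.60 to -0.58). The CRL1505 signal of 70.4 was dim, as the lowest signal well above background on that array was 29.6. The size of the fall depended on the processing, and it was smallest with normexp (-1.47) and the deposited table (-1.65). The spots of the *Cebpa* probe were neither outliers nor uneven on any array. With 1 probe for *Cebpa*, the spread between probes has no value of its own for this gene.

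*Cebpb* and *Cebpd* encode the C/EBP factors that inflammatory signals induce. The *Cebpb* signal was 48487 with LPS alone, 49577 with CRL1505 and 35625 with CRL1506. The log2 ratios of *Cebpb* to LPS were 0.56 and -0.35, above 0 for CRL1505 and below 0 for CRL1506 in all 7 other normalizations, and under 2-fold in each. They ranged from 0.05 to 0.85 after CRL1505 and from -0.55 to -0.17 after CRL1506. The lowest for CRL1505, with spike-in scaling, was within 2 SD of the spot error. The *Cebpd* signal was 36109 with LPS alone, 31320 with CRL1505 and 17913 with CRL1506, lowest with CRL1506. Its ratio after CRL1506 was -0.92, just short of 2-fold, and it passed 2-fold in 2 of the 7 normalizations (-1.12 to -0.79). After CRL1505 it was 0.32, with the sign turning in 1 normalization (-0.19 to 0.61). Between the strains *Cebpd* was 2.36-fold higher with CRL1505 (log2 ratio 1.24), past 2-fold in 3 of the 7 normalizations and above 0 in all (0.84 to 1.74), and *Cebpb* had a ratio of 0.91 (0.51 to 1.41).

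The C/EBP genes were next compared within an array pair, where any shift of a whole array cancels. After CRL1505, the log2 ratio of *Cebpb* exceeded that of *Cebpa* by 2.87, a 7.31-fold difference in change, and that of *Cebpd* exceeded it by 2.63. Over the 12 other settings these gaps ran from 2.02 to 2.87 and from 1.72 to 2.63. As each of these genes had 1 probe, only quantile normalization, cyclic loess, normexp and the deposited table could alter the gaps. All of those settings gave smaller gaps after CRL1505 than the main one. After CRL1506 the gap between *Cebpb* and *Cebpa* was 0.76 (0.55 to 1.03), and that between *Cebpd* and *Cebpa* was 0.19 with a range from just below 0 to 0.40. *Cebpb* and *Cebpd* differed by 0.24 after CRL1505 and by 0.57 after CRL1506. The gaps between *Cebpa* and both relatives were thus wider after CRL1505 than after CRL1506, and set directly between the strains they came to 2.11 for *Cebpb* and 2.44 for *Cebpd*.

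The remaining C/EBP relatives on the array were *Cebpe*, *Cebpg*, *Cebpz* and *Ddit3*. *Ddit3*, which encodes the stress-induced factor CHOP, rose 2.72-fold after CRL1505 (log2 ratio 1.44, from 0.94 to 1.74 over the normalizations and so not past 2-fold in all of them) and had a ratio of 0.88 after CRL1506. The ratios of *Cebpe*, *Cebpg* and *Cebpz* to LPS were 0.51, 0.58 and 0.17 after CRL1505 and -0.15, 0.31 and 0.10 after CRL1506, none reaching 2-fold.

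*Maf* encodes c-MAF, a large basic leucine zipper factor. The signal of its brightest probe was 2403 with LPS alone, 6371 with CRL1505 and 3517 with CRL1506, high with CRL1505 and between the others with CRL1506. The log2 ratio to LPS was 1.93 after CRL1505, past 2-fold in all 7 other normalizations (1.42 to 2.23). A rise as large or larger was found for 3.24% of all genes compared (506 of 15603). After CRL1506 the ratio was 0.64 (0.44 to 0.74), and between the strains *Maf* was 2.45-fold higher with CRL1505 (log2 ratio 1.29, past 2-fold in 6 of the 7 normalizations). Among the 20 spots nearest to this probe, 3 were uneven on the LPS array and none on the others, while the *Maf* spot itself was even on all arrays. Whether the uneven neighbours bear on the *Maf* ratio was not tested.

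The other probes of *Maf* were dimmer and gave smaller ratios. Probe 2 read 1197, 1409 and 878.1 for LPS, CRL1505 + LPS and CRL1506 + LPS, with log2 ratios to LPS of 0.76 and -0.36. Probe 3 read 63.5 and 120.2 for LPS and CRL1505 + LPS, a ratio of 1.44, and was not well above background with CRL1506. All 3 probes read above LPS after CRL1505 (SD between probes 0.59) and higher with CRL1505 than with CRL1506. Probes 2 and 3 lie farther from probe 1 than the length of *Maf* in RefSeq (3642 bases, GRCm38). The array annotation gives them another transcript record than probe 1. Whether they read the same RNA as probe 1 was not tested. For CRL1506 against LPS the probes were on both sides of 0, so the direction of *Maf* there depended on the probe.

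**Figure D2:**
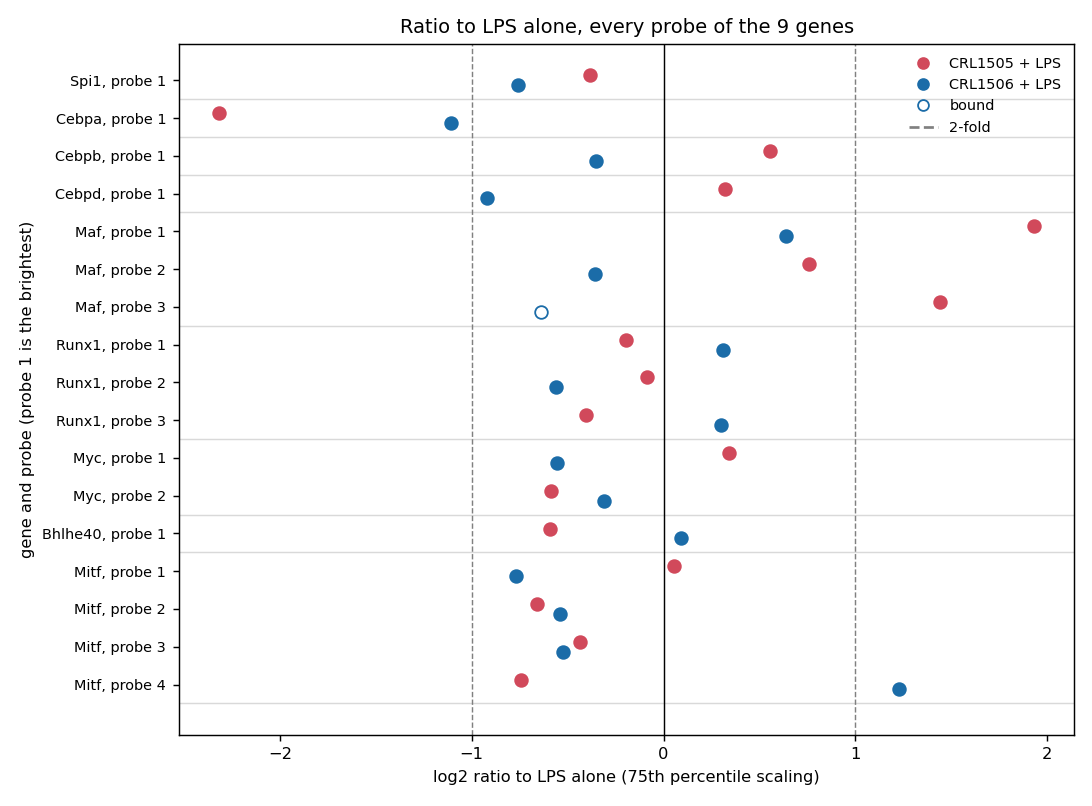
Log2 ratio to LPS alone of each of the 17 probes, red for CRL1505 + LPS and blue for CRL1506 + LPS, with dashed lines at 2-fold; the open circle is a bound, as the probe was not well above background on 1 array. The red points of all 3 *Maf* probes lie above 0, and the blue point of *Mitf* probe 4 lies at 1.23 while those of the other *Mitf* probes lie below 0.

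Of the other MAF family genes, 5 of 6 could be compared. *Mafk*, a small MAF protein that pairs with NRF2, was 2.01-fold higher after CRL1505, but its ratio fell under 2-fold in some normalizations (0.50 to 1.30). None of the 5 reached 2-fold after CRL1506. Among all genes compared, 9.93% were 2-fold higher after CRL1505, and 5.67% were higher and 3.53% lower after CRL1506.

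*Runx1* encodes the factor that starts blood formation and prepares the *Spi1* locus. Its brightest probe read 3839 with LPS alone, 2332 with CRL1505 and 4463 with CRL1506. The log2 ratios to LPS were -0.20 after CRL1505 (-0.70 to 0.10) and 0.31 after CRL1506 (0.11 to 0.40), so the sign for CRL1505 depended on the normalization and the ratio was within the usual SD between probes. Probes 2 and 3 had ratios of -0.09 and -0.40 after CRL1505 and of -0.56 and 0.30 after CRL1506. The 3 probes lay on 1 side of 0 after CRL1505 and on both sides after CRL1506, and none showed a 2-fold difference from LPS. Among RUNX partners, *Cbfb*, the subunit that stabilizes RUNX proteins on DNA, had ratios of -0.23 and -0.38, and *Runx3* had ratios of -0.98 and -0.16. *Runx2* and *Runx1t1* did not exceed background clearly on any of the arrays. *Cbfa2t3*, a corepressor that binds RUNX1 fusion partners, was not well above background after CRL1506. Its bound there was a 2.85-fold fall in the main scaling (log2 ratio -1.51) and shrank under 2-fold in other normalizations (to -0.39).

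*Myc* encodes the basic helix-loop-helix factor of cell growth. Its brighter probe read 623.7, 550.1 and 398.3 for LPS, CRL1505 + LPS and CRL1506 + LPS, lowest with CRL1506. The log2 ratios were 0.34 after CRL1505 (-0.16 to 0.64) and -0.56 after CRL1506 (-0.76 to -0.47). The dimmer probe gave -0.59 and -0.31, so the probes had opposite signs for CRL1505 and the same sign for CRL1506. *Myc* did not reach 2-fold against LPS by either probe.

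In the network around MYC, 4 genes passed 2-fold with at least 1 strain, *Max*, *Mxd1*, *Mxd3* and *Mxd4*. Of 12 genes of the network on the array, 9 could be compared. After CRL1505, 2 of the 9 were 2-fold higher and 1 lower, where 9.93% and 8.41% of all genes compared were. After CRL1506, none was higher and 2 were lower, where 5.67% and 3.53% were. *Mxd1*, which encodes a repressor that competes with MYC for MAX, rose 6.10-fold after CRL1505 (log2 ratio 2.61, from 2.10 to 2.90 over the normalizations), with signals of 1045 with LPS alone, 4435 with CRL1505 and 1425 with CRL1506. *Max*, the shared partner of MYC and the MXD repressors, was 2.55-fold higher after CRL1505 (ratio 1.35, from 0.84 to 1.65) and had a ratio of 0.25 after CRL1506. *Mxd4* was 2.64-fold lower after CRL1506 (ratio -1.40, from -1.63 to -0.91) and had a ratio of -0.95 after CRL1505. *Mxd3* was 2.44-fold lower after CRL1505, a bound because that signal was near background (ratio -1.29, from -1.79 to -0.53), and 2.07-fold lower after CRL1506 (-1.05, from -1.37 to -0.51). The calls of *Max*, *Mxd3* and *Mxd4* were thus lost in some normalizations, while that of *Mxd1* held in all 7. A further 20 genes known as MYC targets in growth and ribosome production included none that reached 2-fold with either strain, with medians of -0.02 after CRL1505 and 0.02 after CRL1506. The farthest of them from LPS was *Ccnd2*, a cyclin of the G1 phase, at -0.84 and -0.99.

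*Bhlhe40* read 342.8 with LPS alone, 158.5 with CRL1505 and 342.4 with CRL1506. The signals of LPS and CRL1506 + LPS were nearly equal before scaling. The log2 ratio was -0.59 after CRL1505 (-1.10 to -0.29, past 2-fold in 1 of the 7 normalizations). After CRL1506 it was 0.09, within 2 SD of the spot error, and its sign held in 3 of the 7 normalizations only. Between the strains the ratio was -0.68 (-1.08 to -0.18).

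*Mitf* was read by 4 probes. The brightest read 12900 with LPS alone, 9317 with CRL1505 and 7112 with CRL1506, with log2 ratios of 0.05 and -0.77. The first of these lay within 2 SD of the spot error and its sign was kept in 1 of the 7 normalizations only, so *Mitf* could not be told from LPS after CRL1505 by this probe. The second was below 0 in all of them (-0.97 to -0.66). Probes 2 and 3 gave -0.66 and -0.43 after CRL1505 and -0.54 and -0.53 after CRL1506. Probe 4 read 704.0, 292.7 and 1549, with ratios of -0.74 after CRL1505 and 1.23 after CRL1506. It therefore went against the other 3 probes for CRL1506, and the SD between the 4 probes was 0.93 in that comparison. The array annotation gives probe 4 a transcript record of *Mitf* that none of the other 3 probes carries. Whether this underlies its different ratio was not tested.

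Among the relatives of MITF, *Tfeb*, a factor of lysosome genes, passed 2-fold after CRL1505 (ratio 1.20, at its lowest 0.69 over the normalizations) and had a ratio of -0.43 after CRL1506, while *Tfe3* had ratios of -0.27 and -0.54. *Bhlhe41*, the close relative of *Bhlhe40*, was not well above background with CRL1505 and had a ratio of 0.40 after CRL1506.

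The 9 genes were then set beside all genes compared. Given the shares of all genes past 2-fold, the counts of 0 to 2 factors past it are close to the background. The median log2 ratio of the 9 genes was 0.05 after CRL1505 and -0.56 after CRL1506, against 0.01 and -0.06 over all genes, and 0.82 against 0.03 between the strains. Their median absolute ratio was 0.38 after CRL1505 against 0.41 over all genes, and 0.64 after CRL1506 against 0.26. These medians rest on the brightest probe of each gene and were not recomputed with probes averaged. The medians of 0.05 and 0.82 were the ratios of *Mitf* by that probe. Averaging gave *Maf*, *Runx1*, *Myc* and *Mitf* ratios of 1.38, -0.23, -0.12 and -0.45 after CRL1505, which turned *Myc* and *Mitf* below 0. Averaged over probes, the ratios of *Maf*, *Runx1*, *Myc* and *Mitf* after CRL1506 were -0.12, 0.01, -0.43 and -0.15, all nearer to LPS. Between the strains, averaging turned *Mitf* from 0.82 to -0.29. It moved *Myc* from 0.90 to 0.31 and *Runx1* from -0.50 to -0.24, and raised *Maf*. Both comparisons with LPS share the LPS array.

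**Figure D3:**
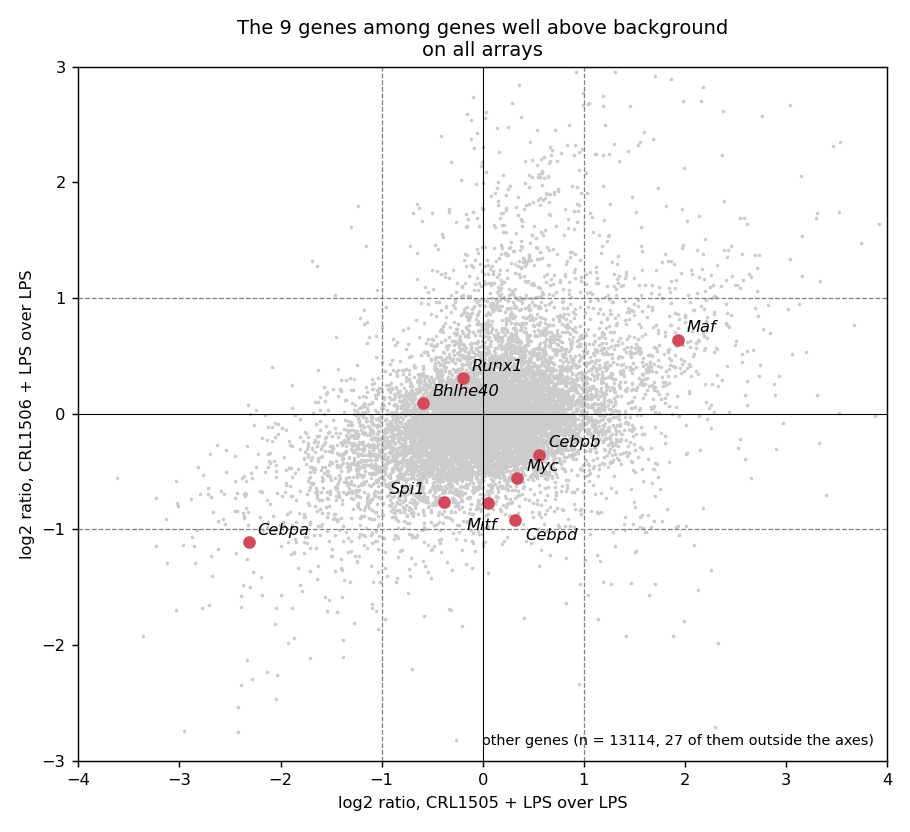
Log2 ratio to LPS after CRL1505 (horizontal axis) and after CRL1506 (vertical axis) for the 9 genes (red) and 13114 other genes well above background on all arrays (grey), of which 27 lie outside the axes. The axes share the LPS array, so a slope of the cloud is not a result; *Cebpa* at -2.31 and -1.11 and *Maf* at 1.93 and 0.64 lie outermost among the red points.

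The genes nearest to *Cebpa* in this pair of ratios, among 13123 genes and over 3 arrays, were *Fam13a* (-2.33 and -0.96), *Sesn1* (-2.33 and -1.26) and *Il1rl1* (-2.44 and -1.21), at Euclidean distances of 0.148 to 0.159. Only 4 genes lay within 0.2 of *Cebpa*. Nearest to *Maf* were *Ifna1* (1.88 and 0.63), *Plpp5* (1.91 and 0.58) and *Agap1* (1.98 and 0.60), and 28 genes lay within 0.2 of it.

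**Figure D4:**
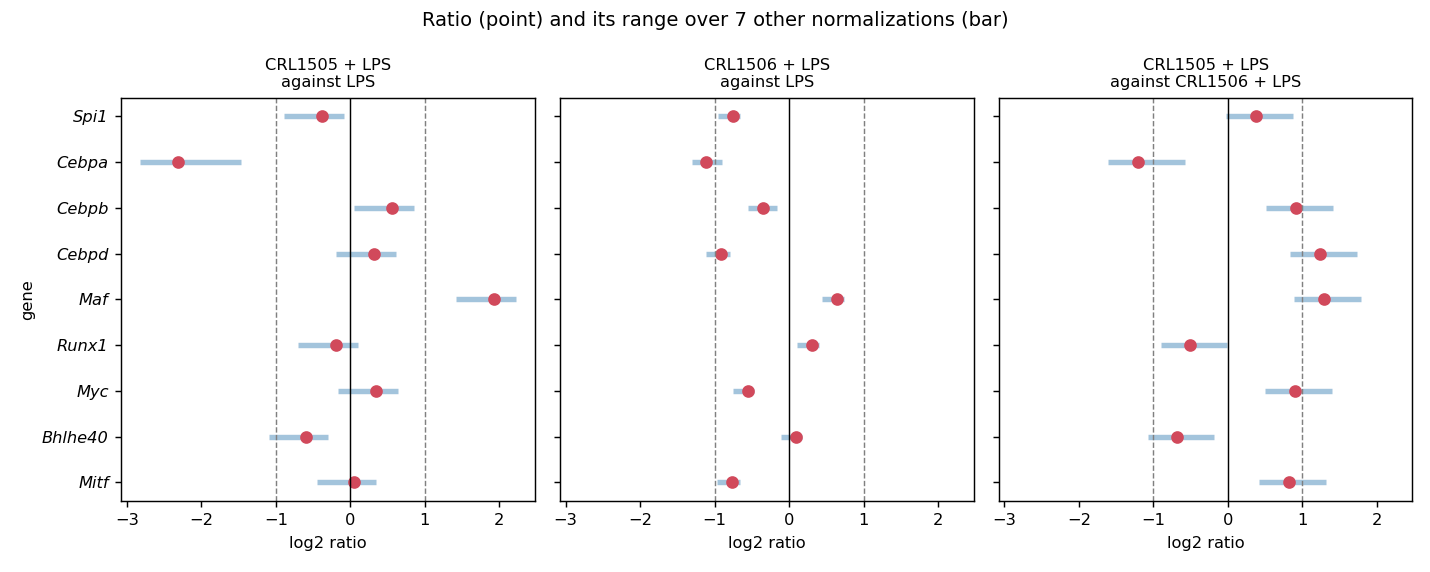
Log2 ratio of each gene in the 3 comparisons (point) and the range it took over 7 other normalizations of the arrays (bar), with dashed lines at 2-fold. For CRL1505 + LPS against LPS only the bars of *Cebpa* and *Maf* lie wholly beyond a dashed line, and the bars of *Cebpd*, *Runx1*, *Myc* and *Mitf* cross 0.

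Other transcription factors of the myeloid lineage were read for context. Of 16 genes on this list, 13 could be compared after CRL1505, where 1 was 2-fold higher and 4 lower. After CRL1506, 14 could be compared, where none was higher and 2 lower. Over all genes compared, 9.93% were higher and 8.41% lower after CRL1505, and 5.67% and 3.53% after CRL1506. *Mef2c*, a MADS-box factor of myeloid progenitors, was 6.15-fold lower after CRL1505 (log2 ratio -2.62, from -3.13 to -2.30) and had a ratio of -0.93 after CRL1506, with signals of 1958 with LPS alone, 221.7 with CRL1505 and 967.3 with CRL1506. *Id1*, an inhibitor of helix-loop-helix factors, fell with both strains (ratios -1.38 and -1.96), and its relative *Id3* fell after CRL1506 (-1.45) and had a ratio of -0.86 after CRL1505. *Lyl1* was 2.53-fold lower after CRL1505 (ratio -1.34), and *Ikzf1* was 2.48-fold higher (1.31, under 2-fold in some normalizations, from 0.81 to 1.61). *Pparg* was not well above background with CRL1505, and its bound of 3.23-fold lower (-1.69) shrank to -0.55 in another normalization. Of the other ETS genes, 13 of 15 were compared. *Fli1* was 2.39-fold lower after CRL1505 (ratio -1.26, from -1.76 to -0.96). *Ets1* and *Etv3* were 3.43-fold and 2.03-fold higher after CRL1506 (1.78, from 0.76 to 1.86, and 1.02, from 0.82 to 1.11). *Ets1* was dim, at 115.6 with LPS alone, 51.9 with CRL1505 and 372.3 with CRL1506. All 3 calls of these ETS genes were lost in some normalizations. *Spib*, the ETS gene most like *Spi1*, stayed near background on all arrays.

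The genes that these factors are known to control were counted from lists, chosen with earlier results of these data known. Over all genes compared, 9.93% were 2-fold higher and 8.41% lower after CRL1505, and 5.67% and 3.53% after CRL1506. Of 20 targets of PU.1 and C/EBPα in myeloid cells, all were compared, and 2 were 2-fold higher and 1 lower after CRL1505 (median 0.10) while none was higher and 1 lower after CRL1506 (median -0.22). The receptor gene *Csf1r*, through which macrophages receive their growth factor, had a signal of 120050 with LPS alone, 30196 with CRL1505 and 61675 with CRL1506, a 2.77-fold fall after CRL1505 (ratio -1.47, from -1.97 to -1.17) and a ratio of -0.87 after CRL1506. *Fcgr1*, the high-affinity IgG receptor, rose 5.28-fold after CRL1505 (ratio 2.40) and had a ratio of 0.95 after CRL1506. *Cybb*, the catalytic subunit of the phagocyte oxidase, was 2.18-fold higher after CRL1505 (1.12, under 2-fold in some normalizations, from 0.62 to 1.42) and had a ratio of -0.25 after CRL1506. *Fcgr3*, a low-affinity IgG receptor, was 2.46-fold lower after CRL1506 (-1.30) and had a ratio of -0.67 after CRL1505. The other targets included *Itgam*, *Cd14* and *Lyz2*, with ratios of 0.15, 0.15 and -0.01 after CRL1505 and of -0.19, -0.27 and -0.25 after CRL1506. Among the 10 macrophage markers, which share 5 genes with these targets, *Adgre1* (F4/80) rose 4.83-fold after CRL1505 (ratio 2.27, from 1.77 to 2.57) and was at the 2-fold threshold after CRL1506 (from 0.80 to 1.11), and after CRL1505 *Csf1r* was the marker past 2-fold in the other direction.

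Of 10 inflammatory targets of C/EBPβ and C/EBPδ, 7 could be compared after CRL1505, and all 7 were 2-fold higher in the main scaling (median 3.40), while *Il1b* and *Saa3* dropped under 2-fold in some normalizations. After CRL1506, 9 were compared, of which 3 were higher and 1 lower (median -0.18). Over all genes compared, 9.93% were higher after CRL1505, and 5.67% were higher and 3.53% lower after CRL1506. The list was chosen with earlier results of these data known, so its counts are no test of C/EBP targets. The cytokine genes *Il6* (ratios 4.25 and 2.35) and *Csf3* (3.53 and 2.35) and the siderophore-binding *Lcn2* (3.92 and 1.64) rose with both strains. The *Csf3* signal was dim with LPS alone, at 112.4. *Il1b* was 2.09-fold higher after CRL1505 (1.07, from 0.56 to 1.36) and 2.06-fold lower after CRL1506 (-1.04, from -1.24 to -0.90), so both calls depended on the normalization. LPS itself induces these genes, and their link to the level of *Cebpb* or *Cebpd* was not tested.

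Of 6 targets of c-MAF in macrophages, 5 were compared. *Il10* alone reached 2-fold, with signals of 178.6 with LPS alone, 972.7 with CRL1505 and 159.1 with CRL1506. That made 1 of 5 higher after CRL1505 and none after CRL1506, where 9.93% and 5.67% of all genes compared were. The complement gene *C1qa* had ratios of -0.89 and -0.77, so the list did not move as 1 group. Of the MITF targets of osteoclasts, *Ctsk*, which encodes cathepsin K, was higher with both strains (ratios 1.54, from 0.93 to 1.83, and 2.32, from 1.44 to 2.41), past 2-fold after CRL1505 only in some normalizations, while *Gpnmb*, *Clcn7*, *Oscar* and *Ostm1* stayed under 2-fold. The *Ctsk* signals were dim, at 75.4 with LPS alone, 152.1 with CRL1505 and 354.6 with CRL1506. *Acp5* was well above background after CRL1506 only, with a bound of 0.68, and *Atp6v0d2* stayed near background on all arrays.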

How the data were processed

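RNA of RAW 264.7 macrophages was hybridized to 1-color arrays, 1 for each of 3 conditions. For each array the authors deposited spot intensities from Agilent Feature Extraction (version 12.0.3.1 in the file headers), with background subtracted and no scaling between arrays. The authors also deposited a table of normalized log2 values, which served as an alternative. The study's text names GeneSpring for normalization without a setting.

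Here each array was scaled to its own 75th percentile of gene spots on the log2 scale, outlier spots were left out, and repeated spots were averaged. A gene was represented by its brightest probe, and other probes are given only for the 9 factors. A gene with neither array well above background has no ratio. Where 1 array was not, the ratio is a bound within that scaling, set against the higher of its own signal and the lowest signal well above background on that array. Genes were called at 2-fold, the study's threshold. With single arrays its test could not be applied. The 9 factors and the gene lists were chosen with earlier results of these data known. All probes of the 9 genes are named, and of each list up to 3 risers and 3 fallers past 2-fold; other genes given with a ratio under 2-fold or a bound were picked after their values were seen. Ranges cover 7 other normalizations. The calculation was tested on simulated data (200 of 200 changed genes recovered for CRL1505 + LPS against LPS, over 15621 genes). The planted changes were all past 2-fold, in genes bright with LPS alone, with the noise of repeated spots only. Full recovery in that simulation was therefore foreseeable. The median error there was 0.0311 in log2 ratio. This concerns the calculation only, and whether a call would recur in another culture or on another slide was not tested. Python 3.11.15, pandas 2.3.3, NumPy 2.4.6, R 4.3.3 and limma 3.58.1 were used.

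The number of arrays limits precision. Alternatives changed the scaling, the background correction (normexp, offset 50), the filter on dim probes, the probe of a gene, the treatment of outlier and uneven spots, and the threshold (1.5-fold and 4-fold).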

Additional observations from a re-analysis of the deposited data

How the results depend on the processing

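No paired analysis was possible because there was 1 array per condition, and no array could be left out. Of the 324 recomputed ratios of single genes, 274 stayed within the spread between probes of the main value and 50 moved farther, and no called ratio changed sign. Many of the 274 could not move. The probes used were well above background, even and no outliers, so the settings for dim, outlier and uneven spots returned the main value. Averaging over probes likewise left genes with 1 probe as they were. The 274 is therefore not a measure of robustness. The count of genes higher after CRL1505 than with LPS alone was 1, and 0 at 4-fold. The count lower was 1, and 2 with spike-in scaling or at 1.5-fold (*Bhlhe40* added). For CRL1506 against LPS, the count higher was 0, and 1 at 1.5-fold (*Maf*). The count lower was 1, and it was 2 with median or spike-in scaling (*Cebpd* added), 0 with normexp, 4 at 1.5-fold and 0 at 4-fold. Between the strains, the count higher with CRL1505 was 2, and it was 5 with median scaling or at 1.5-fold, 1 with quantile normalization, cyclic loess or the deposited table, and 0 with spike-in scaling or at 4-fold. The count lower was 1, and it was 2 with spike-in scaling or at 1.5-fold, and 0 with median scaling, quantile normalization, cyclic loess, normexp, the deposited table or at 4-fold. Scaling shifted whole comparisons: the median log2 ratio of all genes for CRL1505 against LPS was 0.06 in the main setting, 0.35 with median scaling and -0.45 with spike-in scaling, and the split of genes higher and lower went from 1549 and 1312 to 2417 and 760 and to 799 and 3169. Normexp gave 1167 and 674, and 988 and 777 were found in the deposited values. For CRL1506 against LPS the split was 923 and 575 in the main setting, 670 and 873 with median scaling, 781 and 698 with spike-in scaling, 465 and 292 with normexp and 416 and 290 with the deposited values. Between the strains it was 1423 and 1178, 3517 and 434, 801 and 2662, 1051 and 469, and 920 and 576 in the same order. With no filter on dim probes the splits were 2231 and 3675, 2064 and 1330, and 2022 and 3823. The cause of these differences was not tested. The main limit is that 1 array per condition gives no spread between cultures.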
